A study of Mus musculus with 20 samples.

Results

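The p53 response in the kidney was followed here through 35 genes: Trp53, which encodes p53, and 34 genes chosen as p53 targets or as genes that act with it. All 35 were found by symbol among the 19940 genes of the table, and 34 passed the filter on low values. Eda2r, a death receptor of the tumour necrosis factor family, did not pass it, with 6.35 ± 2.70 normalized counts in G3 Tert-/- kidneys and 5.26 ± 1.40 in Tert+/+ kidneys at 47 weeks, and 3.80 ± 2.22 in G3 Tert-/- kidneys and 4.1 ± 0.74 in Tert+/+ kidneys at 7 weeks (SD, n = 5 each). The filter kept 14630 genes with a normalized count of 10 or more in at least 5 libraries. It looked at no group, so a gene present in 1 group only could pass it.

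The 20 libraries came from kidneys of male mice, 5 mice in each of 4 groups: G3 Tert-/- and Tert+/+ mice at 47 weeks, and G3 Tert-/- and Tert+/+ mice at 7 weeks. Tert is the gene of telomerase reverse transcriptase, and G3 marks the third generation of mice bred without it, in which telomeres are short. The allele is missing from every cell, so a kidney effect need not arise in the kidney, and the labels name neither strain nor litter. The study's title concerns short telomeres and kidney fibrosis, and its 4 groups cross genotype with age, so that either can be compared within the other.

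p53 is a transcription factor that is held at a low level by Mdm2, a ligase that marks it for destruction. DNA damage and uncapped telomeres stabilize the protein, which then activates genes for cell cycle arrest, cell death, DNA repair and metabolism. Its activity is set mainly by protein stability and modification, which RNA counts do not measure. Many of its targets also answer to other signals, among them glucocorticoids, amino acid shortage and cell injury.

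p53 binds DNA as a tetramer, and each pair of its subunits contacts a half-site of 10 bases. Promoters from RefSeq (GRCm38.p6, 250 bases before to 50 after each annotated start) were matched for 27 of the 35 genes, and 12 of these 27 (44.4%) held the p53 half-site with no mismatch, against 2582 of 27025 genes (9.55%) overall. Those not matched were Pmaip1, Zmat3, Trp53inp1, Rrm2b, Xpc, Ddb2, Tnfrsf10b and Perp. The half-site is its own reverse complement, so a match counts for both strands. A run of 20 bases made of a half-site pair with no gap and at most 1 mismatch, a search added after the sequences were seen, stood in the promoters of 3 of the 27 genes (11.1%), Cdkn1a, Rps27l and Ccng1, against 29 of 27025 genes (0.107%). The 3 promoters are shown for that element, and those of Trp53 and Aen because the results turn on these genes. Capitals mark the elements and the half-sites without mismatch. The windows are chr17:29090729-29091028 on the plus strand for Cdkn1a, chr9:66946163-66946462 on the plus strand for Rps27l, chr11:40755237-40755536 on the minus strand for Ccng1, chr11:69580109-69580408 on the plus strand for Trp53 and chr7:78895808-78896107 on the plus strand for Aen.
Cdkn1a: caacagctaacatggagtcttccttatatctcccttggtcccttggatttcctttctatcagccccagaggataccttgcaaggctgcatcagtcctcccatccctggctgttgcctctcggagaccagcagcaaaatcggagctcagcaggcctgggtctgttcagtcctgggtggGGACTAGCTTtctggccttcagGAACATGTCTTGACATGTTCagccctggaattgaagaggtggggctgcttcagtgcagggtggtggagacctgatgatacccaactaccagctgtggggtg
Rps27l: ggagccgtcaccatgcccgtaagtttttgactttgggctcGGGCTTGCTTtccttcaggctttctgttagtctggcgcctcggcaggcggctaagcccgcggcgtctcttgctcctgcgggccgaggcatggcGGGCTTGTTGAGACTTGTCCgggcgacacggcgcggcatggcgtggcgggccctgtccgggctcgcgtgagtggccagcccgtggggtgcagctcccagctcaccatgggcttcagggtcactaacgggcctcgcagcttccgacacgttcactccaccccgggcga
Ccng1: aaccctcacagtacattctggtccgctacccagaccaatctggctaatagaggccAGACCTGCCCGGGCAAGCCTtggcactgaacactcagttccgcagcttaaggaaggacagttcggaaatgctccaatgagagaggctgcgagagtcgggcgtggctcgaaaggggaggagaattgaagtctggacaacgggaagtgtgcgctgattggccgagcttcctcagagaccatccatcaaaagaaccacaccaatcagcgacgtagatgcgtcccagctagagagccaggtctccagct
Trp53: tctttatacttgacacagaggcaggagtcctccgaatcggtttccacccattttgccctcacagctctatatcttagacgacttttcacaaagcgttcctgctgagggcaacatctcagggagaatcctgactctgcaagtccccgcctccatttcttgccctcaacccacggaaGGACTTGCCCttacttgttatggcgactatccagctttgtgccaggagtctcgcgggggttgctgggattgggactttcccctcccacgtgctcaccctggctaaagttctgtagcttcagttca
Aen: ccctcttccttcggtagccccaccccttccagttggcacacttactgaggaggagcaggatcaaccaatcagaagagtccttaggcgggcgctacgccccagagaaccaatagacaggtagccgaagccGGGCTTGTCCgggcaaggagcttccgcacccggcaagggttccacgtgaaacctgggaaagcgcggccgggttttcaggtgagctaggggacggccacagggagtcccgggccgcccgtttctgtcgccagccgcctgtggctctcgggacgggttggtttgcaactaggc
The Cdkn1a element, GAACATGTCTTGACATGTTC, began 51 bases before the upstream start and 2841 bases before the second annotated start, whose own window held no half-site. It was also the sole member with 2 half-sites without mismatch at most 13 bases apart, an arrangement in 20 of 27025 genes (0.0740%). A match describes letters and shows no binding, and the counts below come from the 3′ end of the transcripts and do not tell the starts apart.

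Libraries held 7161690 to 9757594 reads assigned to genes, and 3 reads, the most that a value of 0 leaves room for by counting error alone, correspond to 2.49 to 3.38 normalized counts. Kidney genes were abundant in every library: Slc34a1, a phosphate transporter of the proximal tubule, ranged from 19405 to 41220 normalized counts and Umod, the uromodulin gene of the thick ascending limb, from 5487 to 22542. A pair of Tert+/+ libraries stood apart, mouse 1 at 7 weeks and mouse 4 at 47 weeks, whose log2 values deviated from the median library with an SD of 0.606 and 0.482, against 0.177 to 0.386 in the others. Mouse 4 at 47 weeks held 462 normalized counts of the albumin gene Alb, against at most 89.8 in any other library. A further Tert+/+ library, mouse 5 at 7 weeks, held 460 of Star, an adrenal steroidogenic gene, against at most 20.8 in any other library. Some results are given without the pair as well. Tert averaged 6.99 in G3 Tert-/- kidneys and 11.9 in Tert+/+ kidneys at 47 weeks, and 3.11 in G3 Tert-/- kidneys and 9.72 in Tert+/+ kidneys at 7 weeks. The sources used here do not say whether its 3′ end lies outside the deleted part, so these values check the labels little.

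The member with the largest genotype difference at 47 weeks was Cdkn1a (chromosome 17, 29090976 to 29100727 on GRCm38), which encodes p21, the inhibitor of cyclin-dependent kinases through which p53 stops the cell cycle. At 47 weeks it held 225, 229, 239, 296 and 255 normalized counts in G3 Tert-/- kidneys and 83.9, 81.8, 166, 170.0 and 120 in Tert+/+ kidneys. All 5 G3 Tert-/- mice lay above all 5 Tert+/+ mice, with means of 249 ± 28.8 and 124 ± 42.8 (SD). On the log2(normalized count + 1) scale used for all fold changes, Cdkn1a differed by 1.06 (SE 0.26), or 2.08-fold. The difference did not pass over all genes in limma (adjusted p 0.167), and Cdkn1a stood at place 38 of 14630 by p. An exact two-sided permutation test of this gene alone gave p = 0.00794, the smallest that 5 against 5 mice allow. Groups of 5 without overlap always give this value, so it restates the lack of overlap. At 47 weeks, 0.875% of all genes were without overlap and higher in G3 Tert-/- kidneys, and 1.44% lower. Of 30 other settings, the Cdkn1a difference passed in 2. These were the fit without both libraries that stood apart (1.19, adjusted p 0.0207 in limma) and DESeq2 on recovered reads (1.0, adjusted p 0.0327). With 1 library left out at a time it was 0.92 to 1.19 and never passed (adjusted p 0.0510 to 0.503 in limma).

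Cdkn1a at 7 weeks held 104, 178, 194, 167 and 139 normalized counts in G3 Tert-/- kidneys and 59.0, 97.4, 106, 190 and 160 in Tert+/+ kidneys. The groups overlapped, with a difference of 0.43 (SE 0.26, adjusted p 0.516 in limma) and an exact permutation p of 0.254. Without mouse 1 of the Tert+/+ group, which stood apart, the difference was 0.20 (exact permutation p = 0.476), and without mouse 5, with the Star reads, it was 0.55 (exact permutation p = 0.167). The interaction, or how far the genotype effect was larger at 47 than at 7 weeks, was 0.63 (SE 0.36, adjusted p 0.814 in limma), so the genotype effect was not shown to differ between the ages. Without both libraries that stood apart the interaction was 0.99 (adjusted p 0.526). Between the ages, all 5 G3 Tert-/- mice at 47 weeks lay above all 5 G3 Tert-/- mice at 7 weeks (0.69, SE 0.26, adjusted p 0.187 in limma, exact permutation p = 0.00794). In Tert+/+ mice the age difference was 0.07 (SE 0.26, adjusted p 0.956 in limma, exact permutation p = 0.873), and without both libraries that stood apart it was -0.29 (exact permutation p = 0.371, smallest possible 0.0286). Averaged over both ages, the genotype difference was 0.74 (SE 0.18, adjusted p 0.153 in limma and 0.0472 in DESeq2). These comparisons share groups of mice with each other and are not independent.

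**Figure D1:**
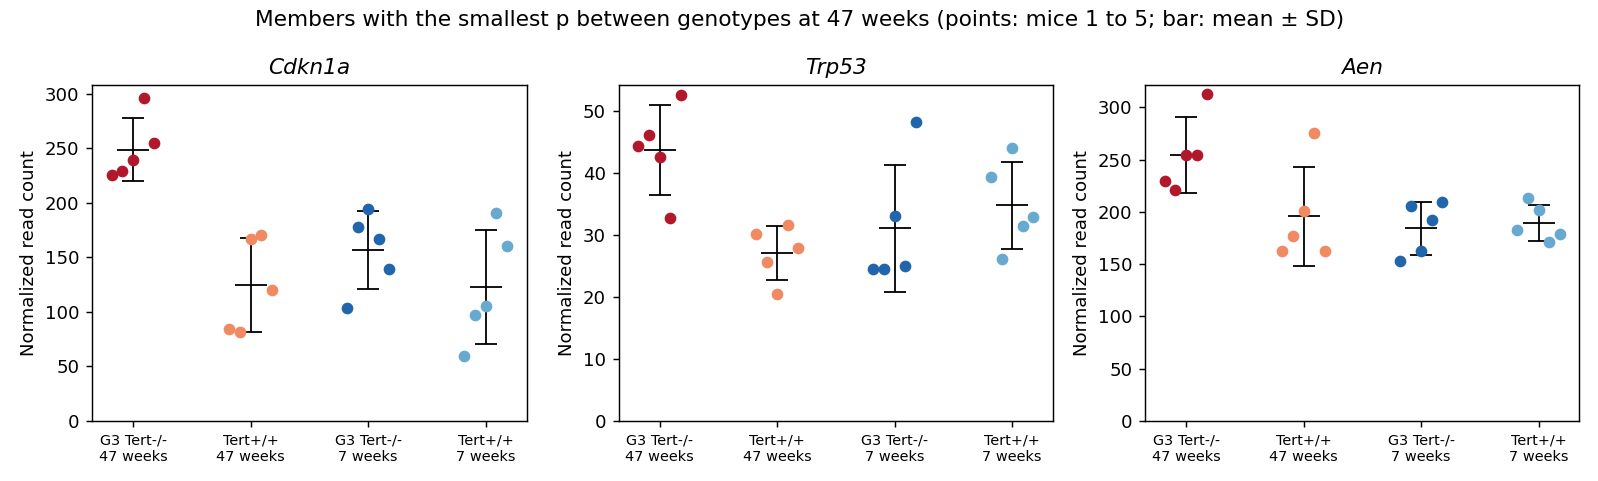
Normalized read counts (vertical axis, from 0) of Cdkn1a, Trp53 and Aen in each of the 20 mice, by group, with the mean ± SD over 5 mice as bars. The G3 Tert-/- kidneys at 47 weeks lie above all Tert+/+ kidneys at 47 weeks for Cdkn1a and Trp53, while 1 Tert+/+ mouse of 47 weeks, at 276, lies among the G3 Tert-/- mice for Aen.

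Trp53 itself (chromosome 11, 69580359 to 69591873) was expressed at a low level in all groups. At 47 weeks it held 44.4, 46.0, 42.6, 32.7 and 52.5 normalized counts in G3 Tert-/- kidneys and 30.1, 25.6, 20.4, 31.5 and 27.8 in Tert+/+ kidneys. The lowest G3 Tert-/- mouse lay just above the highest Tert+/+ mouse, so the groups did not overlap, with a log2 difference of 0.67 (SE 0.21, adjusted p 0.436 in limma). At 7 weeks it held 24.5, 24.5, 33.0, 24.9 and 48.2 in G3 Tert-/- kidneys and 39.4, 26, 44.0, 31.4 and 32.8 in Tert+/+ kidneys, groups that overlapped (-0.19, SE 0.21, adjusted p 0.736). Its interaction, 0.85 (SE 0.29), had an unadjusted p of 0.00760 and an adjusted p of 0.774 in limma. The age difference was 0.51 in G3 Tert-/- mice (SE 0.21, adjusted p 0.225) and -0.34 in Tert+/+ mice (SE 0.21, adjusted p 0.590).

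Across all members, 0 of 34 passed in limma for genotype at 47 weeks, where 14 of 14630 genes passed (0.0957%). edgeR also called 0 of the members, and DESeq2, which called 50 genes in all, called 1, Cdkn1a. At an unadjusted p under 0.05 there were 4 members, all higher in G3 Tert-/- kidneys (Cdkn1a, Trp53, Aen and Zmat3), against 3.08% of all genes higher at that level. Cdkn1a and Trp53 were the 2 members whose groups did not overlap, both higher in G3 Tert-/- kidneys, against 0.875% of all genes. 23 of 34 members had a positive difference, against 52.1% of all genes, and the median difference was 0.08 over the members and 0.01 over all genes.

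Aen (chromosome 7, 78895854 to 78911209), a nuclease that degrades DNA in dying cells, had 229, 221, 254, 254 and 313 normalized counts in G3 Tert-/- kidneys and 163, 177, 201, 276 and 162 in Tert+/+ kidneys at 47 weeks. Of the Tert+/+ mice, only mouse 4, one of the libraries that stood apart, exceeded the lowest G3 Tert-/- mice. The difference was 0.40 (SE 0.14, adjusted p 0.580 in limma), and 0.53 (adjusted p 0.133 in limma) without both libraries that stood apart. At 7 weeks Aen had 153 to 209 in G3 Tert-/- kidneys and 171 to 213 in Tert+/+ kidneys, a difference of -0.05 (SE 0.14, adjusted p 0.917). Zmat3 (chromosome 3, 32334792 to 32366014), a zinc-finger RNA-binding protein, had 220, 212, 258, 247 and 270 in G3 Tert-/- kidneys and 203, 212, 203, 259 and 134 in Tert+/+ kidneys at 47 weeks, a difference of 0.28 (SE 0.13, adjusted p 0.758). The groups overlapped, since mouse 4 of the Tert+/+ group lay within the G3 Tert-/- range.

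**Figure D2:**
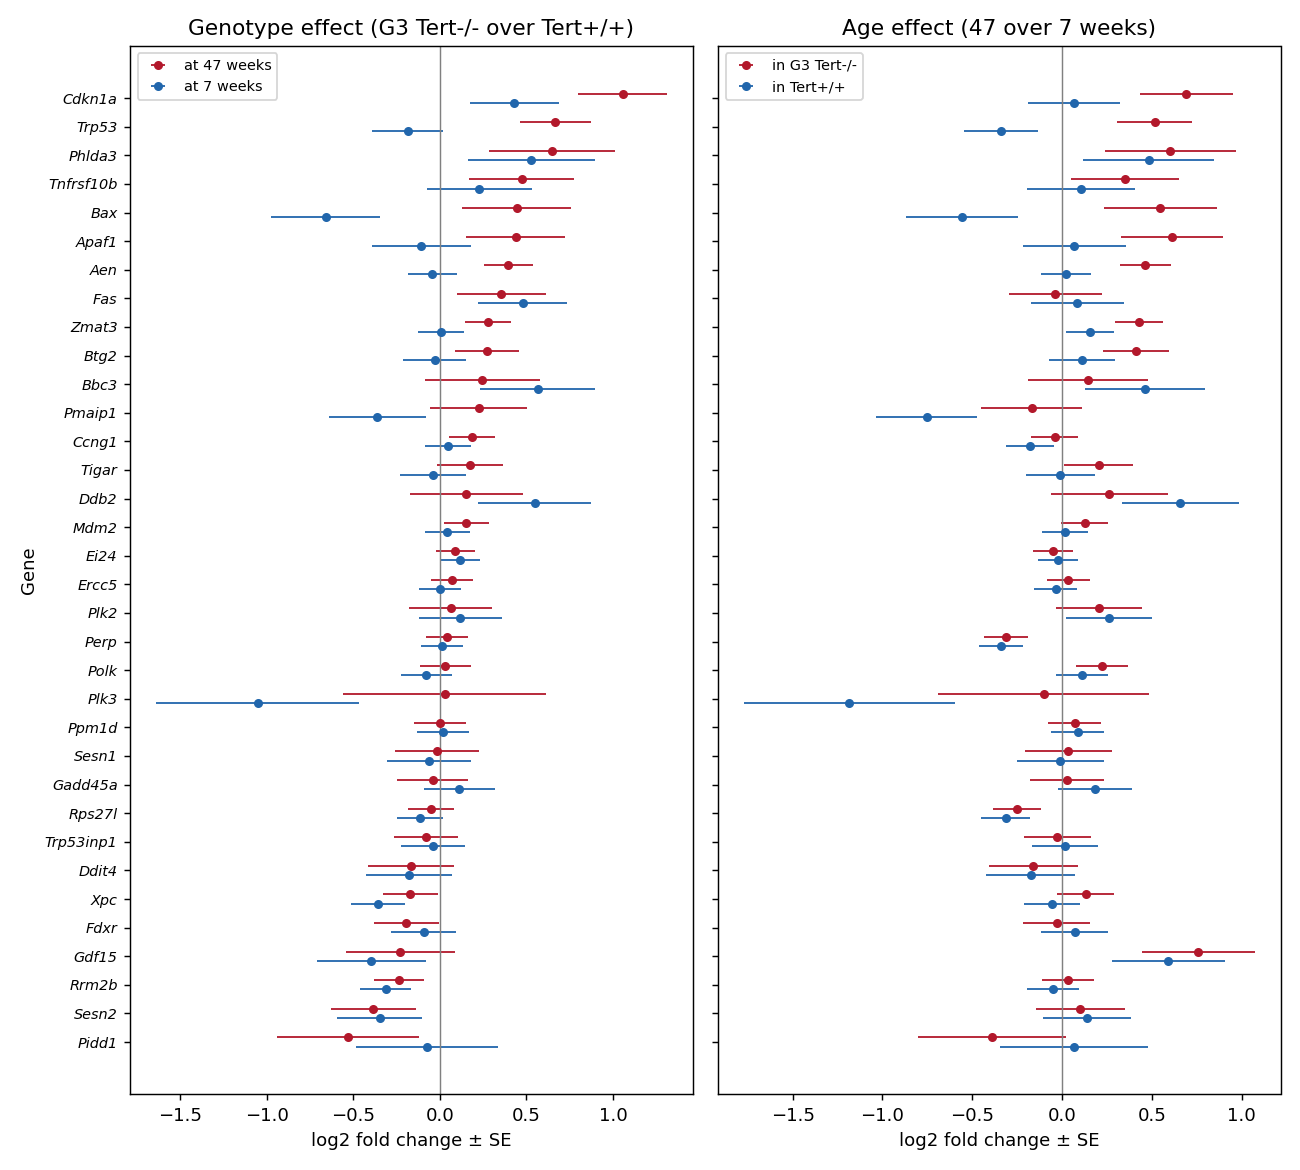
Log2 fold change ± SE (horizontal axis) of each of the 34 tested members, ordered by the genotype effect at 47 weeks, for genotype at each age (left) and for age in each genotype (right). Cdkn1a lies farthest to the right for genotype at 47 weeks, at 1.06, and no member passed in any of these 4 comparisons.

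Neither feedback regulator of p53 among the members passed for genotype. Mdm2 had 349 ± 55.6 normalized counts in G3 Tert-/- kidneys and 312 ± 18.5 in Tert+/+ kidneys at 47 weeks (0.15, SE 0.13, adjusted p 0.877). Ppm1d, the phosphatase Wip1 that removes activating phosphates from p53, had 78.3 ± 5.78 and 79.0 ± 14.3 in the same groups (0.00, SE 0.15, adjusted p 0.999). A further list of 15 tested regulators of p53, which holds kinases, ligases and cofactors, had 0 that passed in any of the 7 comparisons. Its median was 0.08 for genotype at 47 weeks, -0.14 for genotype at 7 weeks and 0.21 for the interaction. The medians over all genes were 0.01, 0.00 and 0.00. Of the 15, 10, 4 and 12 were positive in these comparisons, against 52.1%, 50.2% and 50% of all genes.

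The other genes of cell cycle control among the members had smaller differences than Cdkn1a at 47 weeks, and none passed. Btg2, an antiproliferative cofactor of mRNA decay, had 53.4 ± 11.4 normalized counts in G3 Tert-/- kidneys and 43.6 ± 6.21 in Tert+/+ kidneys at 47 weeks (0.27, SE 0.18, adjusted p 0.848). Ccng1, cyclin G1, among the more abundant members, had 734 ± 48.8 and 648 ± 71.1 in these groups (0.18, SE 0.13, adjusted p 0.854). Gadd45a, a sensor of growth arrest and DNA damage, had 70.4 ± 9.55 and 72.4 ± 8.82 (-0.04, SE 0.21), and Plk2, a kinase of the polo family, had 36.4 ± 9.80 and 34.8 ± 9.76 (0.06, SE 0.24). Plk3, of the same family, spread most within a group: at 7 weeks it had 3.32 to 13.6 in G3 Tert-/- kidneys and 2.95 to 50.8 in Tert+/+ kidneys (-1.05, SE 0.59, adjusted p 0.495).

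Genes that p53 lowers indirectly, through p21 and the DREAM repressor complex, are read out as cell cycle genes, and 12 listed ones were tested. In G3 Tert-/- kidneys against Tert+/+ kidneys 0 of 12 passed at either age, with medians of -0.03 at 47 weeks and 0.34 at 7 weeks. Of the 12, 5 were positive at 47 weeks and 10 at 7 weeks, against 52.1% and 50.2% of all genes. For the interaction 0 of 12 passed and 1 of 12 was positive, against 50% of all genes, with a median of -0.42. With age, 2 of 12 fell in G3 Tert-/- mice, against 1.31% of all genes lower. They were Top2a, a topoisomerase of dividing cells (-1.09, SE 0.22, adjusted p 0.00721), and Rrm2, a ribonucleotide reductase subunit of S phase (-1.33, SE 0.36, adjusted p 0.0495). All 12 were negative with a median of -0.79, where 50.5% of all genes were positive. Top2a also fell in Tert+/+ mice (-0.99, SE 0.22, adjusted p 0.0331), alone of the 12, against 0.246% of all genes lower. There 8 of 12 were negative, where 50.7% of all genes were positive. Top2a averaged 46.9 in G3 Tert-/- kidneys and 51.7 in Tert+/+ kidneys at 47 weeks, and 98.3 in G3 Tert-/- kidneys and 102 in Tert+/+ kidneys at 7 weeks. Averaged over the genotypes, 4 of 12 fell with age, against 2.43% of all genes lower: Top2a, Mki67, Cdk1 and Rrm2. In whole kidney RNA, fewer cells of a type and less RNA per cell cannot be told apart.

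The cell death genes had differences in both directions, and none passed for genotype. Bax, which permeabilizes mitochondria, had 30.6, 40.9, 72.7, 61.3 and 94.0 normalized counts in G3 Tert-/- kidneys and 42.5, 41.4, 35.1, 55.2 and 32.3 in Tert+/+ kidneys at 47 weeks (0.44, SE 0.31, adjusted p 0.853). At 7 weeks it had 38.2, 37.2, 24.5, 59.8 and 36.4 in G3 Tert-/- kidneys and 132, 53, 72.4, 36.0 and 42.9 in Tert+/+ kidneys (-0.66, SE 0.31, adjusted p 0.466). The value of 132 belongs to mouse 1, which stood apart, and without it the difference was -0.38 (adjusted p 0.806). The groups overlapped at both ages. The Bax interaction was 1.10 (SE 0.44, adjusted p 0.774), and it was 0.83 to 1.31 with 1 library left out at a time. Bbc3, the BH3-only protein Puma, had 24.0 ± 9.47 and 20.2 ± 8.62 in G3 Tert-/- and Tert+/+ kidneys at 47 weeks (0.25, SE 0.33). Pmaip1, the BH3-only protein Noxa, had 21.9 ± 7.15 and 19.2 ± 7.84 in these groups (0.23, SE 0.28).

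Of the other genes of cell death, Phlda3, an inhibitor of the kinase Akt, had 48.6, 40.9, 55.1, 47.0 and 53.5 normalized counts in G3 Tert-/- kidneys and 22.8, 24.6, 30.2, 51.8 and 31.2 in Tert+/+ kidneys at 47 weeks. Mouse 4 of the Tert+/+ group, one of the libraries that stood apart, was the only one to reach the G3 Tert-/- range (0.65, SE 0.36, adjusted p 0.797). At 7 weeks Phlda3 ranged from 20 to 77.2 in G3 Tert-/- kidneys and from 6.85 to 39.4 in Tert+/+ kidneys (0.53, SE 0.36, adjusted p 0.568). The death receptor genes Tnfrsf10b and Fas had differences of 0.47 (SE 0.30) and 0.36 (SE 0.26) at 47 weeks, and 0.23 (SE 0.30) and 0.48 (SE 0.26) at 7 weeks. Apaf1, the scaffold of the apoptosome, had 22.5 ± 4.95 in G3 Tert-/- kidneys and 16.8 ± 5.52 in Tert+/+ kidneys at 47 weeks (0.44, SE 0.29, adjusted p 0.839). Pidd1, which assembles the caspase-2 platform, had 10.5 ± 4.60 and 15.8 ± 8.57 in these groups (-0.53, SE 0.41). Trp53inp1, a stress-induced partner of p53, and Ei24, a membrane protein of the endoplasmic reticulum, had differences of -0.08 (SE 0.19) and 0.09 (SE 0.11).

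None of the repair genes passed for genotype, and Xpc and Rrm2b had the smallest p at 7 weeks. Xpc, the damage sensor of nucleotide excision repair, had 328, 283, 239, 186 and 295 normalized counts in G3 Tert-/- kidneys and 436, 341, 364, 289 and 268 in Tert+/+ kidneys at 7 weeks (-0.36, SE 0.16, adjusted p 0.451 in limma). Rrm2b, the p53-inducible subunit of ribonucleotide reductase, had 125, 92.0, 99.8, 93.8 and 107 in G3 Tert-/- kidneys and 142, 131, 149, 104 and 120 in Tert+/+ kidneys at 7 weeks (-0.31, SE 0.14, adjusted p 0.466). The groups overlapped for both genes, with most Tert+/+ mice higher. Averaged over the ages, the genotype difference was -0.26 (SE 0.11, adjusted p 0.408) for Xpc and -0.27 (SE 0.10, adjusted p 0.401) for Rrm2b. Ddb2, which recognizes ultraviolet damage, had 15.1 ± 5.09 and 9.99 ± 3.97 in G3 Tert-/- and Tert+/+ kidneys at 7 weeks (0.55, SE 0.33). Polk, a translesion polymerase, and Ercc5, an endonuclease of excision repair, had differences of -0.08 (SE 0.15) and 0.00 (SE 0.12) at 7 weeks, and of 0.03 (SE 0.15) and 0.07 (SE 0.12) at 47 weeks.

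For genotype at 7 weeks, 0 of 34 members passed in limma, edgeR and DESeq2, and 0 of 14630 genes passed in limma (0%). At an unadjusted p under 0.05 there were 3, Xpc, Rrm2b and Bax, all lower in G3 Tert-/- kidneys, against 5.39% of all genes lower at that level. No member was without overlap, against 0.602% of genes higher and 0.8% lower, and the median was -0.04 over the members and 0.00 over all genes. For the interaction, 0 of 34 members passed in limma, edgeR and DESeq2, against 0.00684% of all genes in limma. There, Trp53, Bax and Aen had an unadjusted p under 0.05, all positive, against 3.25% of all genes positive at that level. For genotype averaged over the ages 0 of 34 passed in limma, against 0.0273% of all genes. DESeq2, which called 56 genes in all, called 1 member, Cdkn1a. In that average 3 members were higher at an unadjusted p under 0.05, Cdkn1a, Phlda3 (0.59, SE 0.26) and Fas (0.42, SE 0.18), against 5.88% of all genes, and 3 were lower, Xpc, Rrm2b and Sesn2 (-0.37, SE 0.17), against 5.21%.

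None of the 6 metabolic, stress and signalling genes among the members passed for genotype. Sesn2, a leucine sensor that restrains mTORC1, had 165 ± 28.5 normalized counts in G3 Tert-/- kidneys and 222 ± 74.9 in Tert+/+ kidneys at 47 weeks (-0.38, SE 0.25, adjusted p 0.835). Its relative Sesn1 had 34.4 ± 9.78 and 34.5 ± 8.68 in these groups (-0.02, SE 0.24). Tigar, a phosphatase that slows glycolysis, had 44.5 ± 7.94 and 39.1 ± 4.16 (0.17, SE 0.19), and Fdxr, ferredoxin reductase, had 75.6 ± 17.6 and 85.1 ± 11.3 (-0.20, SE 0.19). Ddit4, another inhibitor of mTORC1, had 77.5 ± 15.4 and 86.4 ± 13.6 (-0.17, SE 0.25). Gdf15, a secreted stress hormone, had 108, 158, 216, 239 and 264 in G3 Tert-/- kidneys and 179, 121, 249, 500.0 and 189 in Tert+/+ kidneys at 47 weeks (-0.23, SE 0.32, adjusted p 0.929). Its highest value came from mouse 4 of the Tert+/+ group, a library that stood apart.

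**Figure D3:**
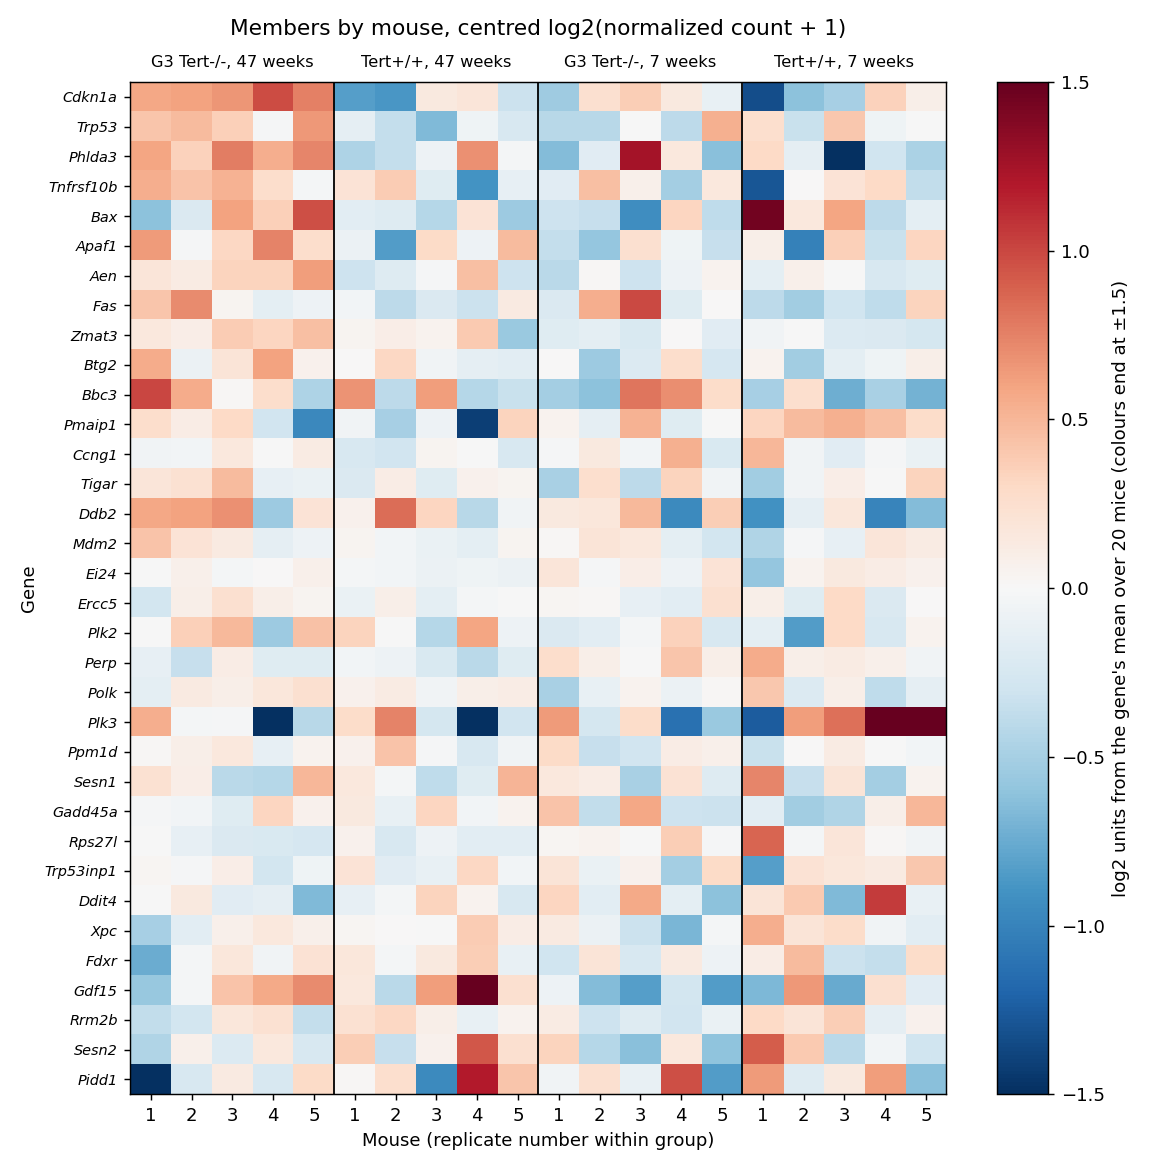
Each of the 34 tested members (rows) in each of the 20 mice (columns, by group), as log2(normalized count + 1) minus the gene's mean over the 20 mice, with colours ending at ±1.5. The Cdkn1a row is above its mean in all 5 G3 Tert-/- kidneys at 47 weeks, and no column is high or low for every gene.

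The means ranked G3 Tert-/- kidneys of 47 weeks first for 15 of 34 members, among them Cdkn1a, Trp53, Aen, Zmat3, Phlda3, Apaf1, Btg2 and Mdm2, against 26.1% of all genes. Tert+/+ kidneys of 47 weeks were first for 6 members, against 20% of all genes. G3 Tert-/- kidneys of 7 weeks were first for 4, against 26.8%, and Tert+/+ kidneys of 7 weeks for 9, against 27%. These are ranks of means, with no test.

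With age, Perp was the sole member that passed in limma with all libraries. Perp (chromosome 10, 18845020 to 18857073), a membrane protein of desmosomes and a target of p53 and p63, had 209, 179, 245, 200.2 and 201 normalized counts in G3 Tert-/- kidneys and 222, 216, 195, 172 and 200.3 in Tert+/+ kidneys at 47 weeks. At 7 weeks it had 273, 243, 226, 305 and 241 in G3 Tert-/- kidneys and 336, 241, 247, 239 and 220 in Tert+/+ kidneys. Values at 47 weeks lay mostly below those at 7 weeks in both genotypes, with overlap. Averaged over the genotypes, Perp fell by 0.33 (SE 0.09, adjusted p 0.0295 in limma). This was 1 of 34 members, against 4.49% of all genes in either direction and 2.43% lower. Without both libraries that stood apart the difference was -0.25 (adjusted p 0.0523), and the adjusted p was 0.0208 to 0.0650 with 1 library left out at a time. It exceeded 0.05 without mouse 2, 4 or 5 of the G3 Tert-/- group at 47 weeks, mouse 3 or 5 of the Tert+/+ group at 47 weeks, or mouse 1 or 4 of the G3 Tert-/- group at 7 weeks. The genotype difference of Perp was 0.04 (SE 0.12) at 47 weeks and 0.01 (SE 0.12) at 7 weeks.

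In G3 Tert-/- mice, 0 of 34 members passed with age in limma, against 2.24% of all genes. edgeR called 0 members, and DESeq2, which called 530 genes in all, called 2, Aen and Zmat3. Aen had 229, 221, 254, 254 and 313 normalized counts at 47 weeks and 153, 206, 163, 192 and 209 at 7 weeks (0.46, SE 0.14, adjusted p 0.0933 in limma and 0.0486 in DESeq2). Zmat3 had 220, 212, 258, 247 and 270 at 47 weeks and 173, 178, 168, 198 and 175 at 7 weeks (0.43, SE 0.13, adjusted p 0.0987 in limma and 0.0406 in DESeq2). With Cdkn1a, they were the 3 members without overlap between these ages, all higher at 47 weeks, against 1.94% of all genes. Without both libraries that stood apart, neither of which is in these groups but which enter the shared spread, the adjusted p in limma was 0.0233 for Aen and 0.0400 for Zmat3. The unadjusted p was under 0.05 for 7 members higher at 47 weeks, against 7.53% of all genes, and for 1 lower, Perp, against 7.4%. Besides these and Trp53, the 7 include Gdf15 (0.76, SE 0.32), Apaf1 (0.61, SE 0.29) and Btg2 (0.41, SE 0.18).

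In Tert+/+ mice, 0 of 34 members passed with age in limma, edgeR and DESeq2, against 0.649% of all genes in limma. No member was without overlap, against 1.28% of genes higher and 1.25% lower. The unadjusted p was under 0.05 for 3 members, all lower at 47 weeks, against 5.41% of all genes. Perp differed by -0.34 (SE 0.12, adjusted p 0.280), and by -0.19 (adjusted p 0.560) without both libraries that stood apart. Pmaip1 had 21.8, 15.8, 21.4, 7.88 and 28.9 at 47 weeks and 28.5, 31.8, 33.3, 31.4 and 27.8 at 7 weeks (-0.75, SE 0.28, adjusted p 0.301), and the lowest value was that of mouse 4, which stood apart and without which the difference was -0.49 (adjusted p 0.394). Rps27l, a ribosomal protein paralog that binds Mdm2, had 1066, 862, 966, 919 and 912 at 47 weeks and 1870, 1000.2, 1157, 1036 and 989 at 7 weeks (-0.31, SE 0.14, adjusted p 0.392). The 1870 belongs to mouse 1, which stood apart, and the difference was -0.15 in limma without it. Reads of Rps27l and its near copy Rps27 could have been split in counting, so its level is uncertain. Across the genotypes, Gdf15 differed by 0.67 with age (SE 0.22, adjusted p 0.0906 in limma and 0.0240 in DESeq2) and Zmat3 by 0.29 (SE 0.09, adjusted p 0.0821 in limma and 0.0267 in DESeq2).

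**Figure D4:**
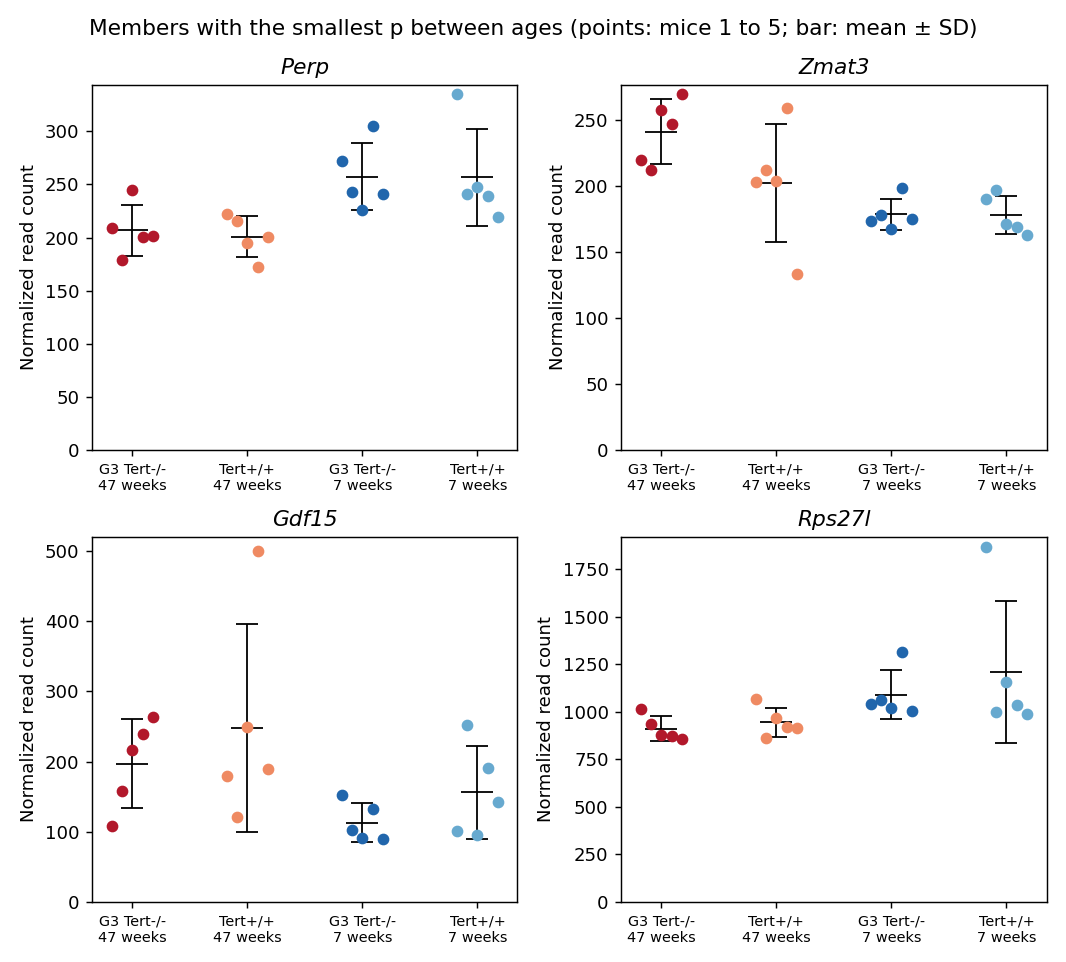
Normalized read counts (vertical axis, from 0) of Perp, Zmat3, Gdf15 and Rps27l in each of the 20 mice, by group, with the mean ± SD over 5 mice as bars. Perp averaged 207 and 201 in G3 Tert-/- and Tert+/+ kidneys at 47 weeks and 257 in each genotype at 7 weeks, and the points at 336 for Perp and 1870 for Rps27l are the same Tert+/+ mouse of 7 weeks.

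Whether mice with more Cdkn1a also had more of the other members was tested within groups, with each group's mean removed, over 20 mice and 33 members. Of these, 17 had a positive Pearson r, the median r was 0.01, and 0 passed after adjustment over the 33. The smallest permutation p was that of Perp (r = -0.66, permutation p = 0.00591, adjusted p 0.181), with r = -0.52 without the 2 mice farthest from the median of Cdkn1a. Rrm2b (r = -0.52, permutation p = 0.0110, adjusted p 0.181) and Sesn1 (r = -0.56, permutation p = 0.0270, adjusted p 0.297) were also negative, and r was -0.43 and -0.30 without those mice. Ppm1d had r = -0.33 over all mice and -0.73 without those mice, where it was the most negative. Spearman's rho was -0.61 for Perp (permutation p = 0.00973), -0.47 for Rrm2b (permutation p = 0.0339) and -0.48 for Sesn1 (permutation p = 0.0487). The highest r was that of Gdf15, at 0.45, and Trp53 had r = -0.20. One of the 2 farthest mice is mouse 1 of the Tert+/+ group at 7 weeks, which stood apart.

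**Figure D5:**
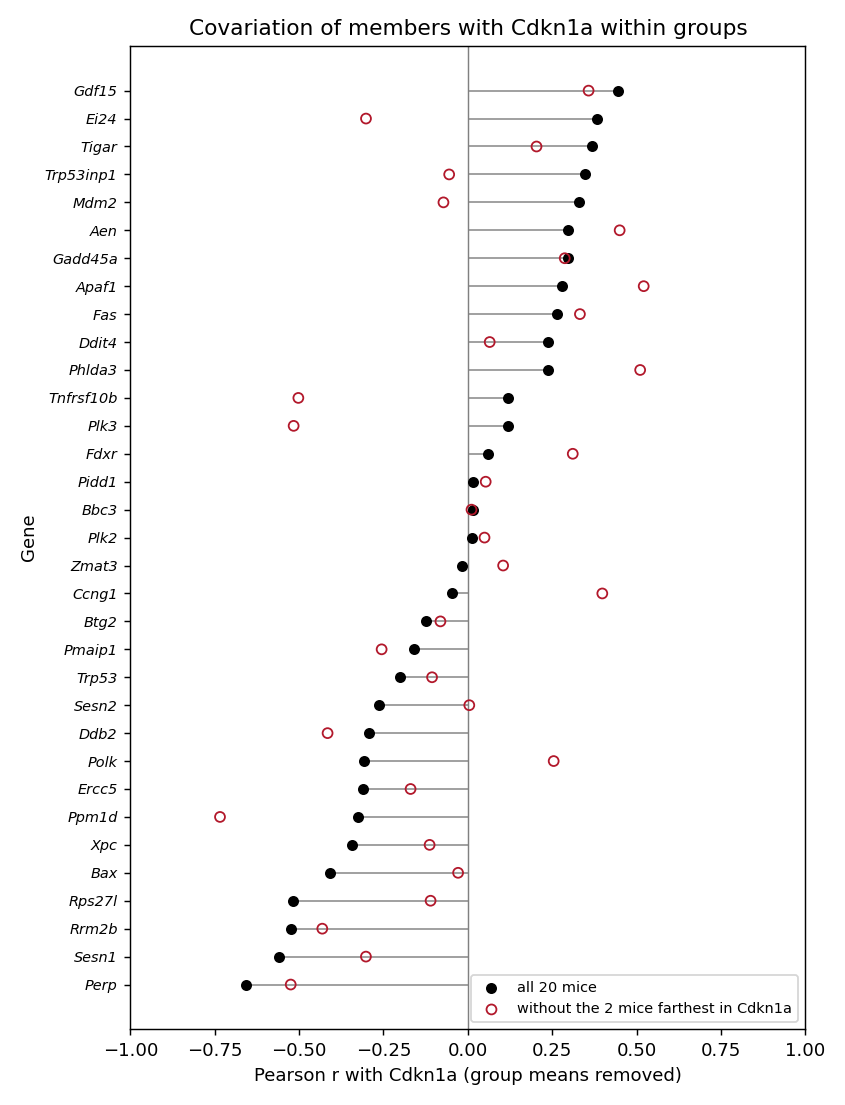
Pearson r of each of 33 members with Cdkn1a over 20 mice with group means removed (horizontal axis, from -1 to 1), for all mice (filled points) and without the 2 mice farthest in Cdkn1a (open points). The filled points run from -0.66 for Perp to 0.45 for Gdf15, and several open points, such as that of Ei24, lie on the other side of 0.

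Targets of p53 outside the members were read as well. Of 24 further targets tested, 0 passed for genotype at either age, against 0.0957% of all genes at 47 weeks and 0% at 7 weeks. Their medians were 0.07 at 47 weeks and 0.01 at 7 weeks. With age averaged over the genotypes 1 passed, against 4.49% of all genes. It was Kitl, the ligand of the receptor Kit (0.44, SE 0.12, adjusted p 0.0281 in limma). Genes that share signals with the members were read beside them. Of 9 tested ATF4 targets, which answer to amino acid shortage as Sesn2, Ddit4 and Gdf15 can, 0 passed for genotype at either age. With age 1 of 9 fell in G3 Tert-/- mice, against 1.31% of all genes lower, and 0 passed in Tert+/+ mice. It was Psat1, an enzyme of serine synthesis (-0.97, SE 0.20, adjusted p 0.00933 in limma). Averaged over the genotypes 2 of 9 fell with age, against 2.43% of all genes lower. They were Psat1 (-0.90, SE 0.14, adjusted p 0.000328 in limma) and Phgdh (-0.93, SE 0.19, adjusted p 0.00496). Of 14 tested glucocorticoid and FoxO targets, 0 passed in any comparison.

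Markers of injury and of other cells were measured beside the Cdkn1a difference at 47 weeks. Of 8 tested tubular injury genes 0 passed for genotype at either age. The summed level of all 11 listed ones was 3331 to 3995 normalized counts in G3 Tert-/- kidneys and 3607 to 4019 in Tert+/+ kidneys. None of the 11 genes was at 0 in all mice of a group. For genotype at 47 weeks 6 of the 8 were positive, with a median of 0.21, against 52.1% of all genes positive. Havcr1, which encodes the injury marker Kim-1, was low. It averaged 1.63 in G3 Tert-/- kidneys at 47 weeks, with 0 in mice 1 and 2, and 8.95 in Tert+/+ kidneys. Of 10 macrophage genes 0 passed for genotype, with sums of 1239 to 2056 in G3 Tert-/- kidneys and 1229 to 1739 in Tert+/+ kidneys. At 47 weeks 7 of the 10 were positive, with a median of 0.37. Of 6 tested B and plasma cell genes 0 passed for genotype, with sums over 9 genes of 412 to 9624 and 2973 to 9394. At 47 weeks 0 of the 6 were positive, with a median of -1.19. Their part in the Cdkn1a difference was not tested.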

How the data were processed

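RNA from 20 mouse kidneys was read at the 3′ end with a QuantSeq kit that keeps the sense strand, per the labels' protocols, which give an input of 300 ng and RNA quality scores between 5.0 and 7.5 (average 6.6). Counts therefore follow annotated 3′ ends and not transcript length. The deposited signal is a normalized read count, and whole reads were recovered by dividing each library by its smallest step (100% whole, tolerance 1e-06). Per the submitters' processing notes, which give no order, the tools were HTSeq 0.6.1, Bowtie 1.0.0, TopHat2 2.0.10, DESeq2, FastQC 0.11.7 and SAMtools 0.1.19, on GRCm38.

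Values were fitted as log2(normalized count + 1) with limma 3.58.1 in R 4.3.3, as 1 model of 4 group means with an intensity trend, and p-values were adjusted by Benjamini-Hochberg over all 14630 genes kept, two-sided, with a threshold of 0.05. edgeR 4.0.16 and DESeq2 1.42.0 on recovered reads were alternatives. Cdkn1a was also tested alone by exact permutation, and covariation by 100000 shuffles within groups. The members, gene lists and tests were chosen with earlier results of these data known. Every member is accounted for, and per comparison those that passed, or the 3 with the smallest p, are named.

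Groups come from the labels. Replicate numbers follow listing order and pair no mice, and p-values measure the spread between these 20 samples, which differed beyond counting error in all 40 within-group pairs (chi-square per degree of freedom 3.59 to 86.6). No annotated gene on the same strand overlaps the 3′ end of a member (GENCODE M21). 4 listed adrenal genes, Trp73, Cdc25c, Aurkb, Fgf21 and Tf were not analysed here. The fit was tested on simulated data.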

Additional observations from a re-analysis of the deposited data

Results flagged for a closer look

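Of 140 gene-by-group sets of 5 mice, 12 held a mouse far from its group, where chance alone gives about 1 in 20. Of these, 5 belong to Tert+/+ mouse 1 at 7 weeks, one of the libraries that stood apart. It had 1870 normalized counts of Rps27l, against 989 to 1157 in the other mice of its group, 1009 of Ccng1, against 633 to 707, and 336 of Perp, against 220 to 247. It was low for Ei24, at 266 against 413 to 439, and for Trp53inp1, at 92.5 against 180 to 218.

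In G3 Tert-/- kidneys at 47 weeks, mouse 1 was low for Fdxr, at 46.5 normalized counts against 75.6 to 90.9 in the others, and for Pidd1, at 3.17 against 10.2 to 15.2. In Tert+/+ kidneys at 47 weeks, mouse 3 was low for Polk, at 74.0 against 80.8 to 83.7. In G3 Tert-/- kidneys at 7 weeks, mouse 4 was low for Ddb2, at 6.64 against 15.4 to 19.8, and high for Rps27l, at 1316 against 1006 to 1060. In Tert+/+ kidneys at 7 weeks, mouse 2 was high for Bbc3, at 22.2 against 10.8 to 12.9, and mouse 5, the library with 460 counts of Star, was high for Fas, at 21.9 against 11.6 to 13.7. The part of adrenal transcript in that value was not tested.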

How the results depend on the processing

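No paired analysis was possible because replicate numbers follow listing order and mark no shared litter, batch or day. Of 512 values under 10 other settings, 480 kept their direction, size or call, as did all those under edgeR, other pseudocounts, other filters, TMM and quantile scaling. DESeq2 called 50 genes for genotype at 47 weeks (18 higher, against 2 of 14 in limma), 13 for genotype at 7 weeks, 530 for age in G3 Tert-/- mice, 211 for age in Tert+/+ mice, 8 for the interaction and 56 for average genotype, and 1, 2, 1 and 3 members for genotype at 47 weeks, age in G3 Tert-/- mice, average genotype and average age. Fits on only the 2 groups compared called 6 genes for genotype at 47 weeks, 53 for age in Tert+/+ mice and 2 members, Cdkn1a and Zmat3, for age in G3 Tert-/- mice. Without both libraries that stood apart there were 661 genes and 2 members for age in G3 Tert-/- mice, 0 genes for the interaction, 1 member for genotype at 47 weeks and 0 for average age, and Cdkn1a with age in Tert+/+ mice was -0.29. The cause was not tested.

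With 1 library left out at a time, 1005 of 1080 values held. The genes called ranged from 2 to 19 for genotype at 47 weeks, 0 to 2 at 7 weeks, 192 to 497 for age in G3 Tert-/- mice, 56 to 125 for age in Tert+/+ mice, 0 to 2 for the interaction, 0 to 7 for average genotype and 501 to 858 for average age. The members called ranged from 0 to 1 for age in G3 Tert-/- mice and 0 to 2 for average age, where Gdf15 joined Perp without mouse 1 of the G3 Tert-/- group at 47 weeks or mouse 2 of either Tert+/+ group. Without mouse 5 of the Tert+/+ group at 47 weeks, Zmat3 passed for average age (adjusted p 0.00888 in limma) and Perp did not. The members' median for genotype at 47 weeks ranged from 0.063 to 0.19. Cdkn1a with age in Tert+/+ mice ranged from -0.17 to 0.25, and was negative without mouse 3 or 4 at 47 weeks or mouse 1 at 7 weeks. Members that covaried with Cdkn1a numbered 0 to 1. The member that passed was Perp, Rrm2b or Ppm1d, depending on the library left out, each with a negative r. Depth limits low genes most: Eda2r, at 6.35 normalized counts or fewer per group, was left out by the filter. Without the filter it did not pass in any of the 7 comparisons (smallest adjusted p 0.436 in limma, for average age).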
